A study of Rattus norvegicus with 200 samples.

Results

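Cirbp and Rbm3 encode the cold-inducible RNA-binding proteins CIRBP and RBM3. They were the 2 rows with these symbols among the 20361 genes of a deposited count table, and both passed the filter on low counts that kept 14393 genes. RNA was sequenced in bulk from brain cells labelled as microglia, the resident macrophages of the brain, of adult male wild-type rats of the outbred Wistar strain. Rats ate a high-fat diet (HFD) or standard chow, with food in the light phase only (light-feeding), in the dark phase only (dark-feeding) or always (ad libitum). The 6 treatments were therefore HFD light-feeding (n = 33 libraries), HFD dark-feeding (n = 33), HFD ad libitum (n = 34), chow light-feeding (n = 33), chow dark-feeding (n = 33) and chow ad libitum (n = 34). Each was sampled at 6 Zeitgeber times (ZT, hours after lights on), ZT2, ZT6 and ZT10 in the light phase and ZT14, ZT18 and ZT22 in the dark phase, with 5 to 7 libraries per treatment and time. Whether each of the 200 libraries stands for a separate animal is not in the labels, so the p-values describe library-to-library spread. Body temperature was not analysed here.

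CIRBP and RBM3 are small proteins with 1 RNA recognition motif and a glycine-rich tail, and both are made in larger amounts when mammalian cells are mildly cooled. In mouse fibroblasts CIRBP binds transcripts of the circadian gene Clock, and daily temperature cycles make its level cycle. In mouse brain RBM3 is known for preserving synapses after cooling. Rats are active in the dark, when their body temperature is higher, and heat shock chaperones are known to respond to warming, the opposite stimulus. In mouse, the octamer TCCCCGCC in the flanking sequence of Cirbp was described as a mild-cold response element to which the factor Sp1 binds.

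The promoters are shown because that octamer was tied to the cold induction of Cirbp in mouse. They run from 250 bases before to 50 bases after the annotated start, from RefSeq on the rat build GRCr8, which is not the build of the count table. Cirbp lies at chr7:10189426-10189725 on the minus strand and Rbm3 at chrX:17020655-17020954 on the plus strand. Each is written 5′ to 3′ along its gene, with TCCCCGCC in capitals.
Cirbp: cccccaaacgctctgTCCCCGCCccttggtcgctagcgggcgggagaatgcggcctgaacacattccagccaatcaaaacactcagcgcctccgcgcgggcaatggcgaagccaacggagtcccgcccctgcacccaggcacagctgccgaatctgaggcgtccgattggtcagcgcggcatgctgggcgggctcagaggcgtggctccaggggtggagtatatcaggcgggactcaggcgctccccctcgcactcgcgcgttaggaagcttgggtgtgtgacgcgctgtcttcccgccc
Rbm3: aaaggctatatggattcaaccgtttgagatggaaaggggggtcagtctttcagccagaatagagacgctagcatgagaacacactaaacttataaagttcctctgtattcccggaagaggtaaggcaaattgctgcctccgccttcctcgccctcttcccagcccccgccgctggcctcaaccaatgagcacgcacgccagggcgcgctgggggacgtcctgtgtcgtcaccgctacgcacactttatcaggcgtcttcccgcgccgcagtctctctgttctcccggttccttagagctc
The octamer was found 1 time in the Cirbp window, starting 235 bases before the start site, and 0 times in the Rbm3 window, on either strand. It occurred in 4.79% of 33469 rat promoters of the same length. The GC box GGGCGG was found 5 times at Cirbp, 1 of them overlapping the octamer, and 0 times at Rbm3, against 33.1% of promoters with at least 1. Neither window held the E-box CACGTG (6.42% of promoters), the heat shock element core GAANNTTC (8.59%) or the cAMP response element TGACGTCA (1.83%), searched on both strands. GC content was 67% at Cirbp and 56.3% at Rbm3, with a median of 51.7% over all promoters.

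Both genes were abundant. Cirbp averaged 137.6 ± 20.72 FPKM, fragments scaled to transcript length and to library size, over the 200 libraries (SD), rank 393 of 17611 genes. Rbm3 averaged 195.2 ± 34.16 FPKM, rank 204. Per length, Rbm3 was thus the higher of the pair. On the count scale every library gave Cirbp at least 709 counts and Rbm3 at least 646, and no count of either gene was fractional. From here levels are in CPM, counts scaled to library size with TMM (the trimmed mean of M values), in which Cirbp averaged 269.2 ± 42.26 and Rbm3 181.5 ± 31.94. Library totals ran from 3.778 M to 11.64 M counts, with a median of 7.548 M.

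Markers of the labelled cell type were present beside higher summed levels of oligodendrocyte and neuron markers. The 9 microglia markers that passed the filter, of 10 listed, summed to a median of 384 FPKM per library (229 to 746). The 8 oligodendrocyte markers summed to 6510 FPKM (3670 to 11700) and the 8 neuron markers to 1490 FPKM (1170 to 1810). Astrocyte markers summed to 301 FPKM (179 to 1100), erythrocyte markers to 828 FPKM (225 to 24000) and endothelial markers to 16.4 FPKM (6.21 to 67.9). In bulk RNA, fewer cells of a type and less RNA per cell cannot be told apart, so a level of Cirbp or Rbm3 belongs to the mixture. The library titles form 2 numbered series, 1 per diet, so diet and series cannot be told apart.

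The first question was whether the members differed between the light and the dark phase in each treatment. Both were higher in the light phase under dark-feeding and under ad libitum feeding, on both diets, and neither passed the test under light-feeding on either diet. The light phase mean was set against the dark phase mean with edgeR's quasi-likelihood test, Benjamini-Hochberg adjusted over the 14393 genes at a threshold of 0.05. Changes are log2 ratios with their standard error (SE), light phase over dark phase.

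**Figure D1:**
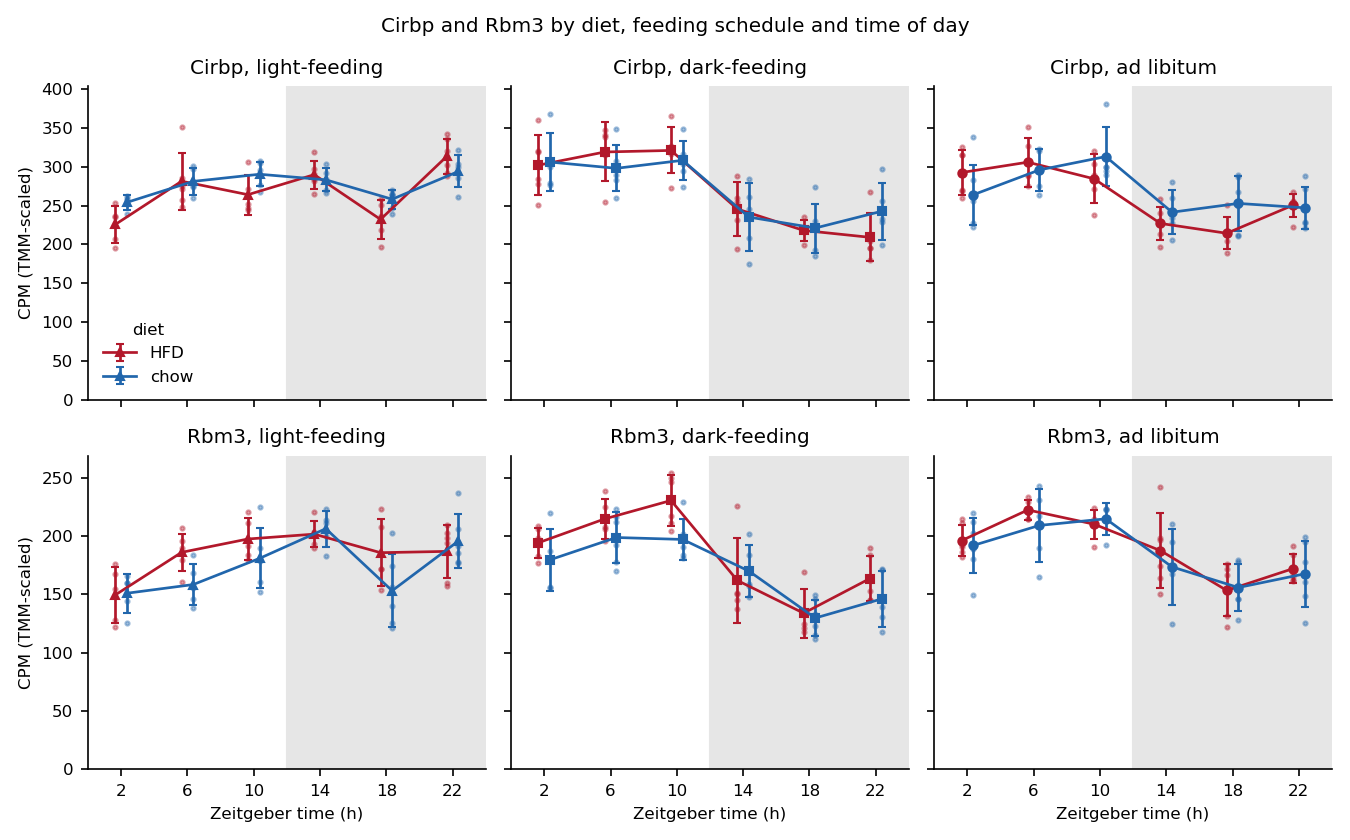
Cirbp (top) and Rbm3 (bottom) in CPM against Zeitgeber time in h, by feeding schedule (columns) and diet (colour). Small points are libraries, large symbols and bars are the mean and SD of 5 to 7 libraries, and grey marks the dark phase. Under dark-feeding and ad libitum feeding the light phase means stand above the dark phase means, and under light-feeding low means fall at ZT2 and ZT18 for Cirbp on both diets.

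Under HFD light-feeding, Cirbp ran from 195.1 to 351.5 CPM in the light phase (median 252.8, n = 16) and from 196.9 to 342.5 CPM in the dark phase (median 287.9, n = 17). The ranges overlapped, and 13 of 17 dark phase libraries lay above the light phase median (log2 change -0.11, SE 0.05, adjusted p = 0.335; 0.327% of all genes called). Under HFD dark-feeding, Cirbp ran from 251.1 to 365.7 CPM in the light phase (median 320.1, n = 17) and from 179.5 to 288.7 CPM in the dark phase (median 216.7, n = 16). All 17 light phase libraries lay above the dark phase median, and 12 lay above every dark phase library (0.49, SE 0.06, adjusted p = 3.39e-07; 33.5% called). Under HFD ad libitum, Cirbp ran from 238 to 350.9 CPM in the light phase (median 289.4, n = 16) and from 188.5 to 267.6 CPM in the dark phase (median 226.3, n = 18). Here 14 of 16 light phase libraries lay above every dark phase library (0.35, SE 0.05, adjusted p = 1.2e-06; 20% called). Most dark phase libraries of HFD ad libitum have lower title numbers than most of its light phase libraries. Phase and any order effect therefore cannot be fully told apart in this treatment, for either gene. Without ZT18, the HFD light-feeding value of Cirbp was -0.24 and passed (adjusted p = 0.0127).

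On chow, too, Cirbp was higher in the light phase under dark-feeding and ad libitum feeding. Under chow light-feeding, light phase libraries spanned 239.2 to 307 CPM (median 274.5, n = 16) and dark phase libraries 239.3 to 322.4 CPM (median 270.3, n = 17). These ranges coincided (-0.02, SE 0.03, adjusted p = 0.748; 19.8% called). Under chow dark-feeding they were 259.5 to 368.5 CPM in the light phase (median 300.5, n = 17) and 174.6 to 297.7 CPM in the dark phase (median 229.7, n = 16). All 17 light phase libraries lay above the dark phase median (0.39, SE 0.06, adjusted p = 5.07e-05; 25.3% called). Under chow ad libitum they were 222.5 to 381.4 CPM in the light phase (median 289.7, n = 17) and 206.2 to 289.5 CPM in the dark phase (median 246.1, n = 17). The overlap was wider here, with 9 of 17 light phase libraries above every dark phase library (0.23, SE 0.06, adjusted p = 0.0164; 4.86% called).

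Rbm3 gave the same picture. Its light phase libraries above every dark phase library numbered 4 under HFD dark-feeding, 0 under HFD ad libitum and 5 under chow dark-feeding. For Cirbp they numbered 12, 14 and 10 in that order, and under chow ad libitum both genes had 9. Dark phase libraries below every light phase library numbered 13, 13 and 10 for Rbm3 and 12, 10 and 12 for Cirbp in the same order. Under HFD light-feeding it ran from 121.9 to 221.1 CPM in the light phase (median 182) and from 153.7 to 223.8 CPM in the dark phase (median 198.3). Here 12 of 17 dark phase libraries lay above the light phase median (-0.12, SE 0.06, adjusted p = 0.395). Under HFD dark-feeding it ran from 177.1 to 254.1 CPM in the light phase (median 208) and from 117.7 to 226 CPM in the dark phase (median 147.9). Only 1 of 16 dark phase libraries exceeded the light phase median (0.48, SE 0.06, adjusted p = 7.05e-07). Under HFD ad libitum it ran from 181.8 to 233.9 CPM in the light phase (median 213.4) and from 121.8 to 242.1 CPM in the dark phase (median 167). There, 13 of 18 dark phase libraries lay below every light phase library (0.30, SE 0.05, adjusted p = 8.64e-05).

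Under chow light-feeding, Rbm3 stood lower in the light phase, at 125.3 to 225.4 CPM (median 160.2), than in the dark phase, at 120.9 to 237.5 CPM (median 185.6), and did not pass (-0.17, SE 0.06, adjusted p = 0.0539). With DESeq2 it did (adjusted p = 0.0443), as it did without ZT10 (-0.25, adjusted p = 0.0213) or ZT18 (-0.30, adjusted p = 0.000715). Under chow dark-feeding it ran from 155.3 to 229.3 CPM in the light phase (median 191.2) and from 112 to 201.9 CPM in the dark phase (median 146.7). All 17 light phase libraries exceeded the dark phase median (0.38, SE 0.06, adjusted p = 4.47e-05). Under chow ad libitum it ran from 149.3 to 243.3 CPM in the light phase (median 212.3) and from 124.5 to 210.7 CPM in the dark phase (median 167.7). Here 9 of 17 light phase libraries lay above every dark phase library (0.31, SE 0.07, adjusted p = 0.00688).

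**Figure D2:**
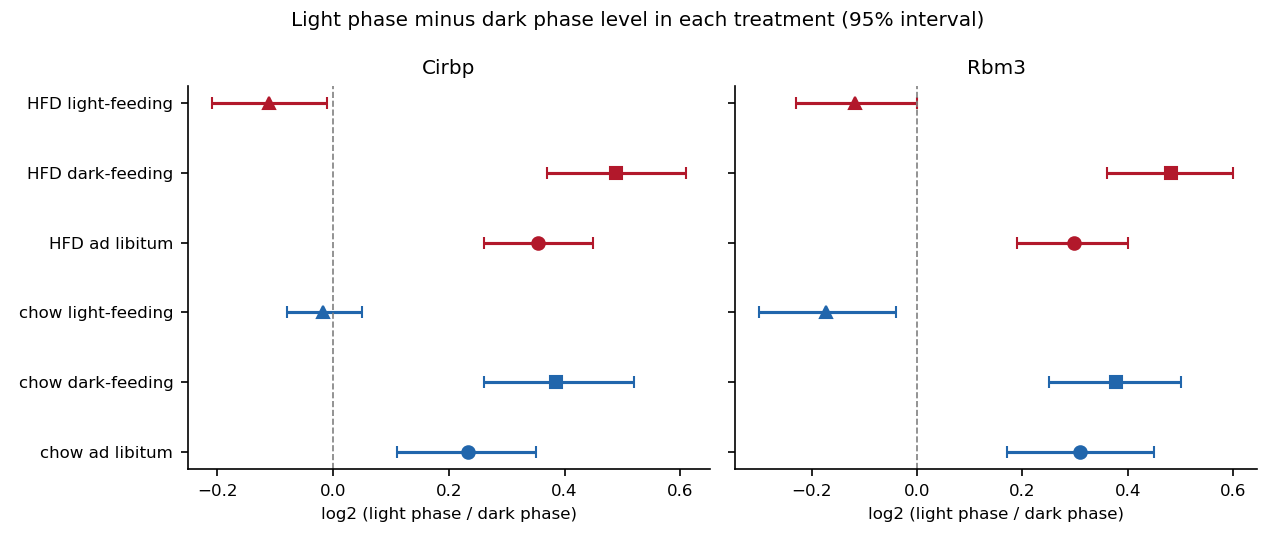
Light phase over dark phase change of Cirbp (left) and Rbm3 (right), log2 scale, in each treatment. Points are edgeR estimates and bars 95% intervals. The 4 treatments with dark-feeding or ad libitum feeding lie between 0.23 and 0.49 for Cirbp and between 0.30 and 0.48 for Rbm3, and the 2 light-feeding treatments lie below 0.

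These light phase calls were not equally firm. Rbm3 under HFD dark-feeding kept it in all 14 alternative settings, at changes of 0.39 to 0.65. With scores of 6 cell type marker lists in the model, Cirbp lost its call under HFD dark-feeding (0.26, adjusted p = 0.275) and chow dark-feeding (0.17, adjusted p = 0.281), as did Rbm3 under chow dark-feeding (0.31, adjusted p = 0.0757). Microglia markers moved in the same direction: 7 of 9 were higher in the light phase under HFD dark-feeding, 5 of 9 under HFD ad libitum and 3 of 9 under chow dark-feeding, with 0 of 9 in the other 3 treatments. Of all genes, 17.1%, 9.77% and 11.6% were called higher in the first 3 of these. The summed level of the microglia markers under HFD dark-feeding was 585 to 888 CPM in the light phase (median 733) and 484 to 823 CPM in the dark phase (median 558). Other lists shifted there too. Light and dark phase medians were 16300 and 14600 CPM for oligodendrocyte markers, and 3540 and 3900 CPM for neuron markers, the other way. They were 487 and 445 CPM for astrocyte, 33.9 and 28.7 CPM for endothelial and 233 and 182 CPM for erythrocyte markers. The part of the marker lists in the result was not tested beyond that fit. With runs of neighbouring library titles in place of libraries as the unit, the ad libitum calls were lost for Cirbp (adjusted p = 0.552 on HFD and 0.228 on chow) and Rbm3 (adjusted p = 0.662 and 0.274), at changes of 0.25 to 0.36. With a smooth function of the title number in the model, Cirbp lost its call under HFD ad libitum (0.28, adjusted p = 0.114), and both genes lost theirs under chow dark-feeding (Cirbp 0.45, adjusted p = 0.134, Rbm3 0.30, adjusted p = 0.314). Leaving out ZT6, ZT10, ZT14 or ZT18 ended the Cirbp call under chow ad libitum (adjusted p = 0.0689, 0.169, 0.0525 and 0.061 in that order), and leaving out ZT10 or ZT18 ended that of Rbm3 (adjusted p = 0.0653 and 0.119).

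The comparison the schedules allow is whether this light phase excess itself differed between them. It was smaller under light-feeding than under dark-feeding or ad libitum feeding, for both genes and on both diets. On HFD the log2 excess under light-feeding minus that under dark-feeding was -0.60 for Cirbp (SE 0.08, adjusted p = 3.97e-08) and -0.60 for Rbm3 (SE 0.08, adjusted p = 2.96e-07), where 28.4% of all genes were called. For light-feeding minus ad libitum on HFD it was -0.46 for Cirbp (SE 0.07, adjusted p = 1.13e-06) and -0.41 for Rbm3 (SE 0.08, adjusted p = 9.57e-05), with 15.9% of genes called. On chow, light-feeding minus dark-feeding gave -0.40 for Cirbp (SE 0.07, adjusted p = 1.74e-05) and -0.55 for Rbm3 (SE 0.09, adjusted p = 5.62e-06), with 31.7% called. Light-feeding minus ad libitum on chow gave -0.25 for Cirbp (SE 0.07, adjusted p = 0.00759) and -0.48 for Rbm3 (SE 0.10, adjusted p = 0.000404), with 15.7% called. These contrasts share the light-feeding libraries of their diet, so they are not separate evidence.

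The HFD difference between light-feeding and dark-feeding held for both genes in all 14 alternative settings, at -0.71 to -0.46 for Cirbp and -0.82 to -0.53 for Rbm3. Short runs of libraries of these schedules alternate in the numbering of the titles, with 2 runs per schedule and time. At a single time, schedule and title run are therefore not fully separable. Most HFD ad libitum libraries have lower title numbers than the others, so in HFD the schedule against ad libitum and any order effect cannot be told apart. With a smooth function of the title number in the model, the chow difference between light-feeding and ad libitum lost its call for Cirbp (-0.13, adjusted p = 0.505) and Rbm3 (-0.19, adjusted p = 0.492), and the HFD one for Cirbp (-0.41, adjusted p = 0.103). So did the chow difference between light-feeding and dark-feeding for Rbm3 (-0.43, adjusted p = 0.222). With marker scores, Cirbp lost its call in both chow differences (-0.23 against dark-feeding and -0.15 against ad libitum, adjusted p = 0.141 each). With runs as the unit, all 4 differences between light-feeding and ad libitum lost their calls, on HFD (Cirbp 0.0814, Rbm3 0.192) and on chow (Cirbp 0.226, Rbm3 0.207). On HFD, microglia markers shared the direction of the members: 9 of 9 had a smaller light phase excess under light-feeding than under dark-feeding, as had 13.9% of all genes.

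Dark-feeding did not differ detectably from ad libitum feeding in this excess. The difference on HFD was 0.14 for Cirbp (95% interval -0.01 to 0.28, adjusted p = 0.378) and 0.18 for Rbm3 (0.02 to 0.34, adjusted p = 0.241), with 0.0347% of genes called. On chow it was 0.15 for Cirbp (-0.02 to 0.33, adjusted p = 0.718) and 0.07 for Rbm3 (-0.12 to 0.26, adjusted p = 0.879), with 0% called. Between diets, HFD minus chow differed in the excess by -0.09 (Cirbp, adjusted p = 0.286) and 0.06 (Rbm3, adjusted p = 0.719) under light-feeding, where 12.9% of genes were called. It differed by 0.10 (Cirbp, adjusted p = 0.595) and 0.11 (Rbm3, adjusted p = 0.584) under dark-feeding (0.73% called), and by 0.12 (Cirbp, adjusted p = 0.585) and -0.01 (Rbm3, adjusted p = 0.973) under ad libitum feeding (0% called). None of these passed, which does not show that the diets act alike.

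Set against each other at each time, the estimates for light-feeding lay below dark-feeding in the light phase and above it in the dark phase. Most of these single-time contrasts did not pass. At ZT2 on HFD, Cirbp was 195.1, 207.1, 235.3, 237.3 and 253.9 CPM in the 5 light-feeding libraries, and 251.1 to 360.3 CPM with a median of 301.8 in the 6 dark-feeding libraries. Only the highest light-feeding library reached into the dark-feeding range (log2 change -0.42, SE 0.09, adjusted p = 0.00106; 20% of genes called). Rbm3 at the same time was 121.9, 127.7, 154.9, 167.3 and 176.2 CPM under light-feeding and 177.1 to 208.8 CPM with a median of 195.8 under dark-feeding. These groups did not overlap (-0.38, SE 0.10, adjusted p = 0.00602). Microglia markers were lower with them at this time, 8 of 9 past the threshold, against 10.3% of all genes. With the marker scores in the model, Rbm3 at ZT2 had an adjusted p of 0.0786 (-0.36) and Cirbp kept its call. With runs as the unit, Cirbp lost it (adjusted p = 0.0668).

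At ZT22 on HFD the order was turned round. Cirbp ran from 287.9 to 342.5 CPM (median 311.2) in 6 light-feeding libraries and from 179.5 to 267.4 CPM (median 199.8) in 6 dark-feeding libraries. The groups did not overlap, and the change of 0.58 (SE 0.09, adjusted p = 2.06e-05; 13.4% of genes called) ranked 8 of 14393 genes by p. It lost its call with runs as the unit (adjusted p = 0.138) and with the smooth title number (0.39, adjusted p = 0.0902). Rbm3 at ZT22 ran from 157.1 to 210 CPM (median 196.2) under light-feeding and from 145 to 189.9 CPM (median 159.1) under dark-feeding. It overlapped widely and did not pass (0.19, SE 0.10, adjusted p = 0.187). At ZT18 both genes again had higher estimates under light-feeding, that of Rbm3 the larger, and they were not tested against each other. Rbm3 was 153.7, 171.6, 172.3, 208.1 and 223.8 CPM under light-feeding and 117.7, 120.9, 125, 136.5 and 169.5 CPM under dark-feeding. Its change of 0.475 (SE 0.11) had an adjusted p of 0.149, at a time when 0% of genes were called. Cirbp at ZT18 changed by 0.09 (SE 0.10, adjusted p = 0.759).

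On chow, 3 single-time contrasts passed. Cirbp at ZT14 was 266.9, 270.3, 284.2, 292.1 and 303.1 CPM under light-feeding and 174.6, 208.9, 246, 261.8 and 285 CPM under dark-feeding. A single dark-feeding library lay within the light-feeding range (0.27, SE 0.09, adjusted p = 0.0276; 22.5% of genes called). At ZT22 Cirbp ran from 260.7 to 322.4 CPM (median 296.2) in 6 light-feeding libraries, against 199.1, 228.6, 232.8, 255.5 and 297.7 CPM in 5 dark-feeding libraries. The groups overlapped through the highest dark-feeding library (0.28, SE 0.09, adjusted p = 0.0383; 7.45% of genes called). Rbm3 at ZT22 ran from 176.9 to 237.5 CPM (median 188.5) under light-feeding, against 118.1, 130.6, 138.9, 171.1 and 172.1 CPM under dark-feeding. The groups did not overlap (0.42, SE 0.11, adjusted p = 0.0111). At chow ZT14 all 4 erythrocyte markers and 4 of 8 astrocyte markers were lower under light-feeding (12.1% of all genes), and with marker scores in the model Cirbp lost its call (0.21, adjusted p = 0.197). On FPKM the ZT14 change of Cirbp was 0.12 (adjusted p = 0.361). All 3 chow calls were lost with runs as the unit (adjusted p = 0.49 to 0.754) and with the smooth title number (adjusted p = 0.057 to 0.204).

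At the remaining times neither gene passed. On HFD, ZT14 came nearest, with 0.32 for Rbm3 (SE 0.10, adjusted p = 0.0576) and 0.24 for Cirbp (SE 0.09, adjusted p = 0.118), where 4.02% of genes were called. On chow, Cirbp at ZT2 changed by -0.27 (SE 0.09, adjusted p = 0.0573), where 7.36% were called, and Rbm3 at ZT6 by -0.325 (SE 0.11, adjusted p = 0.0901), where 2.43% were called. At chow ZT10 and ZT18, with 2.96% and 0.0695% of genes called, both genes had adjusted p of 0.188 or more, and at HFD ZT6 and ZT10, with 0% called, of 0.326 or more.

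**Figure D3:**
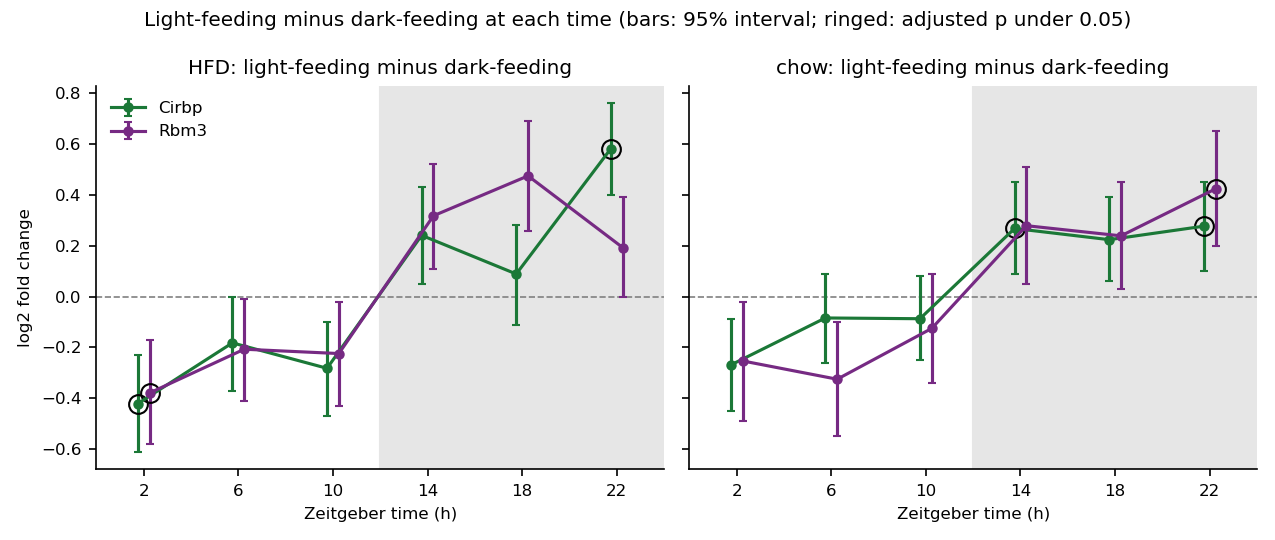
Light-feeding minus dark-feeding log2 change of Cirbp (green) and Rbm3 (purple) at each Zeitgeber time in h, on HFD (left) and chow (right). Bars are 95% intervals and black rings mark an adjusted p under 0.05. All estimates at ZT2, ZT6 and ZT10 lie below 0 and all at ZT14, ZT18 and ZT22 above 0, and 3 estimates on HFD and 3 on chow carry a ring.

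The second question was the shape and timing of the daily variation, tested in edgeR as a cosine of 24 h period within each treatment. Peaks, sizes and their SE are from a least-squares fit to log2 CPM. Under dark-feeding and ad libitum feeding, the fitted peaks fell in the middle of the light phase, at ZT5.19 to ZT7.61 for Cirbp and ZT6.67 to ZT7.32 for Rbm3. For Cirbp the rhythm passed under HFD dark-feeding (peak-to-trough log2 change 0.71, SE 0.09, adjusted p = 1.5e-06; 27.5% of genes called), HFD ad libitum (0.54, SE 0.06, adjusted p = 8.02e-07; 19.6%) and chow dark-feeding (0.53, SE 0.09, adjusted p = 0.00031; 22.9%). Under chow ad libitum it narrowly missed (0.32, SE 0.09, adjusted p = 0.0561; 4.56%), and there 6 of 16 alternative settings called it. For Rbm3 it passed under HFD dark-feeding (0.73, SE 0.09, adjusted p = 3.26e-06), HFD ad libitum (0.51, SE 0.08, adjusted p = 3.04e-05), chow dark-feeding (0.63, SE 0.09, adjusted p = 1.94e-05) and chow ad libitum (0.47, SE 0.10, adjusted p = 0.00904). With runs as the unit, calls were lost under HFD ad libitum (Cirbp 0.0861, Rbm3 0.0987), chow dark-feeding (Cirbp 0.0634) and chow ad libitum (Rbm3 0.347), all edgeR adjusted p. Under chow dark-feeding both genes lost theirs with marker scores (Cirbp 0.566, Rbm3 0.0947) and the smooth title number (0.21, 0.144), which also ended the Cirbp calls under HFD dark-feeding (0.177) and HFD ad libitum (0.105). In HFD ad libitum, Zeitgeber time largely followed the title number, so rhythm and any order effect cannot be fully told apart there.

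Under light-feeding no 24 h cosine passed. The peak-to-trough change of Cirbp was 0.06 (SE 0.11, adjusted p = 0.963) on HFD, where 0.841% of genes were called, and 0.08 (SE 0.05, adjusted p = 0.592) on chow, where 20.3% were called. That of Rbm3 was 0.31 (SE 0.09, adjusted p = 0.128) on HFD and 0.21 (SE 0.13, adjusted p = 0.317) on chow, with fitted peaks at ZT13.4 and ZT14.4. The cosine took up 0.966% of the variance of Cirbp between HFD light-feeding libraries, but the 6 time means took up 64.5%. On chow light-feeding those shares were 6.25% and 55.3% for Cirbp. For Rbm3 they were 28.4% and 46.1% on HFD and 8.67% and 51% on chow. Cirbp on HFD light-feeding averaged 225.8, 281.5, 264.2, 290, 232.3 and 313.6 CPM from ZT2 to ZT22, with low points at ZT2 and ZT18 next to the highest mean at ZT22. Rbm3 on chow light-feeding averaged 151.1, 158.5, 181, 206.5, 153.2 and 196 CPM, high at ZT14 and ZT22 and low at ZT2 and ZT18.

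A test of time as 6 unordered levels called all 4 of these: Cirbp on HFD light-feeding (adjusted p = 0.000997; 8.37% of genes called) and chow light-feeding (adjusted p = 0.0105; 21.9%), and Rbm3 on HFD (adjusted p = 0.0355) and chow (adjusted p = 0.00673). Adding a 12 h cosine to the 24 h one called none of them, with adjusted p from 0.0567 to 0.584. Without ZT22 the 24 h cosine passed in all 4, with adjusted p between 0.00518 and 0.0408.

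**Figure D4:**
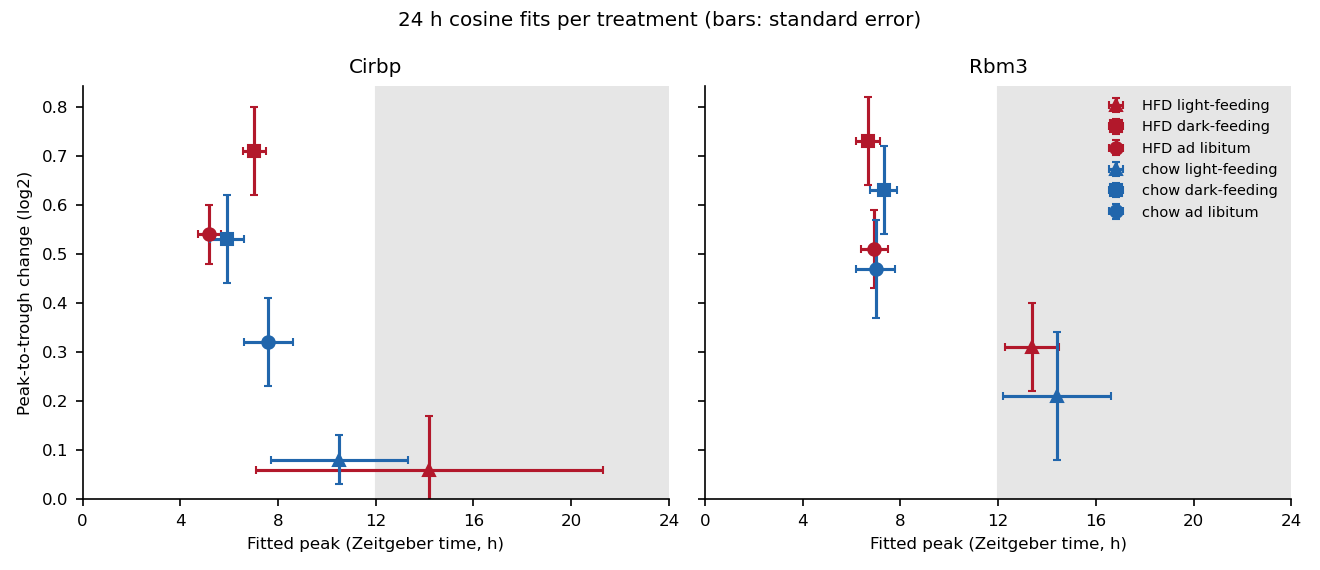
Fitted peak in Zeitgeber time (h) against the peak-to-trough log2 change for Cirbp (left) and Rbm3 (right), with standard errors as bars and grey for the dark phase. Treatments with dark-feeding or ad libitum feeding peak between ZT5.19 and ZT7.61 with changes of 0.32 to 0.73, and light-feeding treatments have changes of 0.06 to 0.31 with peaks that are less certain.

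Tested directly, the 24 h rhythm differed between light-feeding and dark-feeding on HFD for Cirbp (adjusted p = 0.000627) and Rbm3 (adjusted p = 0.000101), where 21.6% of genes were called. It differed between the same schedules on chow for Cirbp (adjusted p = 0.00107) and Rbm3 (adjusted p = 0.000439), where 37% were called. Against ad libitum feeding, light-feeding differed on HFD for both (Cirbp adjusted p = 0.00434, Rbm3 adjusted p = 0.00125; 10.6% called) and on chow for Rbm3 (adjusted p = 0.0206) but not Cirbp (adjusted p = 0.138; 11.3% called). Of the remaining pairs, dark-feeding against ad libitum and HFD against chow within a schedule, none passed for either gene, with adjusted p from 0.186 to 0.992. Of all genes, 9.18% were called between the diets under light-feeding, 0% between them under dark-feeding or ad libitum feeding, and 0.0347% between dark-feeding and ad libitum on each diet. With the title number as a smooth term, none of the 7 rhythm differences kept its call. With runs as the unit, the HFD difference of Rbm3 between light-feeding and dark-feeding was the single one of the 7 to keep it. With marker scores, 3 of the 7, all on chow, were lost.

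The mean level over the day moved little with treatment. Cirbp averaged 270.4 ± 39.61 CPM in HFD light-feeding, 270 ± 56.13 in HFD dark-feeding, 260.7 ± 41.65 in HFD ad libitum, 277.3 ± 21.2 in chow light-feeding, 269.3 ± 48.51 in chow dark-feeding and 267.7 ± 39.91 in chow ad libitum (SD, n = 33 or 34). Rbm3 averaged 185.3 ± 25.07, 184.5 ± 39.21, 188.9 ± 29.09, 174.6 ± 30.16, 170.8 ± 32.99 and 184.6 ± 31.89 CPM in the same treatments. Chow light-feeding was highest and HFD ad libitum lowest for Cirbp, while HFD ad libitum was highest and chow dark-feeding lowest for Rbm3, and all neighbours in either order differed by less than their SD. The single level contrast to pass was Rbm3 in HFD dark-feeding minus chow dark-feeding (log2 change 0.10, SE 0.04, adjusted p = 0.047), a comparison in which 45.9% of all genes were called. It lost its call in 9 of 13 alternative settings, among them FPKM (0.07, adjusted p = 0.192). No diet by schedule interaction of either gene passed, with adjusted p from 0.665 to 0.992 (0.792%, 9.81% and 0% of genes called in the 3 interactions).

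For the same 3 diet contrasts, Cirbp in HFD minus chow changed by -0.05 (SE 0.03, adjusted p = 0.15; 50.3% of genes called) under light-feeding, -0.01 (SE 0.04, adjusted p = 0.93) under dark-feeding and -0.04 (SE 0.04, adjusted p = 0.54; 20.1% called) under ad libitum feeding. On FPKM the light-feeding value was -0.09 (adjusted p = 0.00467). Light-feeding minus dark-feeding changed the daily mean of Cirbp by 0.01 (95% interval -0.10 to 0.13) on HFD and 0.06 (-0.03 to 0.14) on chow, and that of Rbm3 by 0.03 (-0.09 to 0.14) on HFD and 0.04 (-0.07 to 0.15) on chow, where 0.0834% and 0% of genes were called. Light-feeding and dark-feeding against ad libitum feeding passed for neither gene, with adjusted p from 0.377 to 0.958. In these comparisons 10.7% of genes were called for light-feeding and 4.7% for dark-feeding on HFD, and 1.6% and 0% on chow.

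Beyond treatment and time, the correlation of the members across libraries passed in no treatment after adjustment. With treatment-by-time means removed, Pearson's r between their log2 CPM was 0.05 in HFD light-feeding, 0.15 in HFD dark-feeding, 0.21 in HFD ad libitum, 0.16 in chow light-feeding, 0.18 in chow dark-feeding and 0.38 in chow ad libitum. The last had a two-sided permutation p of 0.0375, which became 0.225 after adjustment over the 6 treatments, and Spearman's rho was 0.42 (p = 0.025, adjusted 0.15). Without the 2 libraries farthest from the median of Cirbp, r was 0.46, and within runs of neighbouring titles it was 0.19. Within runs r was 0.13 in HFD light-feeding, 0.47 in HFD dark-feeding, 0.33 in HFD ad libitum, 0.15 in chow light-feeding and 0.13 in chow dark-feeding. In the other treatments rho was 0.10 to 0.27, with adjusted p of at least 0.45.

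Chaperones of the heat shock list were lower in the light phase in the treatments in which the members were higher. The members and this list, like those below, were chosen with earlier results of these data known, so the counts are a description. Of 21 listed genes, 19 were measured. Those lower in the light phase numbered 0 under HFD light-feeding, 13 under HFD dark-feeding, 11 under HFD ad libitum, 3 under chow light-feeding, 15 under chow dark-feeding and 9 under chow ad libitum, and 0 were higher in any treatment. Over all genes, 0.195%, 16.4%, 10.2%, 11.7%, 13.7% and 2.56% were called lower in the same treatments. The list's median log2 change was 0.02, -0.27, -0.28, 0.02, -0.41 and -0.30 in that order, while the median over all genes lay between -0.01 and 0.01. Of the list's most rhythmic members under chow ad libitum, Ahsa1, an activator of the chaperone HSP90, changed by 0.06, -0.43, -0.39, 0.08, -0.49 and -0.40 in that order. The genes named from this, the clock and the partner list had the smallest rhythm p under chow ad libitum, so their values there are a description. Stip1, which links HSP70 to HSP90, changed by -0.29 under HFD dark-feeding (SE 0.04, adjusted p = 1.03e-05). There Hsp90ab1, the constitutive HSP90, changed by -0.28 (SE 0.06, adjusted p = 0.00024), and its co-chaperone Fkbp4 by -0.23 (SE 0.04, adjusted p = 0.000136).

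The chaperones were also counted at single times. Light-feeding minus dark-feeding on HFD gave 12 of 19 higher at ZT2 and 11 of 19 lower at ZT22, against 9.7% of all genes higher and 6.91% lower. On chow it gave 9 of 19 higher at ZT2 (2.93% of all genes), 12 of 19 lower at ZT14 (12.1%) and 3 of 19 lower at ZT22 (4.97%). The light phase deficit of the list was itself smaller under light-feeding than under dark-feeding, with 11 of 19 genes past the threshold in that direction and 1 in the other on HFD and 13 of 19 and 0 on chow, where 14.5% and 15.9% of all genes were called higher. Immediate early genes, which report neuronal and cell stimulation, were lower in the light phase in 6 of 9 cases under HFD dark-feeding, 5 of 9 under HFD ad libitum and 9 of 9 under chow dark-feeding, and in 0 of 9 in the other 3 treatments. Of all genes, 16.4%, 10.2% and 13.7% were called lower in the first 3 of these. The part of the immediate early genes in the result was not tested.

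Clock genes included some that were called under light-feeding. All 20 listed genes were measured, and 6 were called under HFD light-feeding, 16 under HFD dark-feeding, 15 under HFD ad libitum, 7 under chow light-feeding, 12 under chow dark-feeding and 8 under chow ad libitum, against 0.327%, 33.5%, 20%, 19.8%, 25.3% and 4.86% of all genes. Arntl, which encodes the activator BMAL1, changed by 0.33, 0.53, 0.61, 0.28, 0.50 and 0.47 in that order and passed in each of the first 5. Per2, a repressor of BMAL1, changed by -0.33, -1.48, -1.39, -0.03, -1.54 and -1.29, with the chow light-feeding value short of the threshold (adjusted p = 0.872). The repressor Ciart changed by -0.46, -0.80, -0.59, -0.28, -0.43 and -0.40 and likewise passed in the first 5. Dbp, an output factor of the clock, changed by -0.39 under HFD light-feeding (adjusted p = 0.00137) and -0.17 under chow light-feeding (adjusted p = 0.0651).

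Among known partners of the members, 9 of 12 were measured. Trpv3, a warm-sensitive ion channel, was higher in the light phase under HFD dark-feeding (0.48, adjusted p = 0.000339), HFD ad libitum (0.19, adjusted p = 0.0488) and chow dark-feeding (0.36, adjusted p = 0.00785) and lower under chow light-feeding (-0.35, adjusted p = 0.0143). Plcg1, a phospholipase downstream of the neurotrophin receptor TrkB, was lower in the light phase under HFD dark-feeding (-0.17), HFD ad libitum (-0.14) and chow dark-feeding (-0.17), and its value under chow ad libitum was -0.16. Sp1 and Rtn3, whose product RBM3 induces in mouse neurons, were lower under chow light-feeding (-0.19 each, adjusted p = 0.0109 and 0.00808) and passed in no other treatment. In all, 0, 4, 4, 4, 2 and 1 of the 9 were called in the 6 treatments in the order above, against 0.327%, 33.5%, 20%, 19.8%, 25.3% and 4.86% of all genes, so that under dark-feeding the share was near that of all genes.

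Other glycine-rich RNA-binding proteins were a further list. Of 13, all measured, 0 were called under HFD light-feeding, 4 under HFD dark-feeding, 5 under HFD ad libitum, 3 under chow light-feeding, 3 under chow dark-feeding and 2 under chow ad libitum. Of all genes, 0.327%, 33.5%, 20%, 19.8%, 25.3% and 4.86% were called in the same treatments, so the list's counts under dark-feeding and chow light-feeding were near the background. Their median log2 change stayed between -0.09 and 0.02. Of 16 temperature-sensitive splicing regulators, 0, 6, 5, 6, 6 and 2 were called in the same order of treatments, to be read against the same shares of all genes (33.5% for the 6 under HFD dark-feeding), with median changes between -0.08 and 0.06. Clk1, a kinase of splicing factors known to be more active at lower temperature, was named here after its values were seen. Its values are therefore a description, and a link to temperature was not tested. Clk1 was lower in the light phase under HFD ad libitum (-0.23, adjusted p = 3.33e-05), chow dark-feeding (-0.22, adjusted p = 0.00236) and chow ad libitum (-0.25, adjusted p = 0.00369). Its values under HFD dark-feeding, HFD light-feeding and chow light-feeding are not given, so no pattern of Clk1 over the treatments can be read from these.

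The genes most like each member were found by Pearson's r over the 36 treatment-by-time means of log2 CPM, among 10796 genes that averaged at least 5 CPM. Means share libraries' depth and composition, so r is a description. The genes were picked by these same means. Their light phase changes and adjusted p-values, here and for Luc7l2 below, are therefore a description too. Cirbp was most like Rsrp1, an arginine- and serine-rich protein (r = 0.97), then Lima1, an actin-binding protein (0.942), Npepl1, an aminopeptidase (0.935), Coro1b, a coronin of the actin cytoskeleton (0.933), and Sf3a3, a spliceosome subunit (0.92). Rsrp1 was higher in the light phase by 0.48 under HFD dark-feeding (SE 0.07, adjusted p = 5.22e-06) and by 0.49 under chow dark-feeding (SE 0.07, adjusted p = 4.45e-06). Under HFD and chow light-feeding it changed by -0.07 and -0.06. The most opposite genes were Topors, a ubiquitin and SUMO ligase (-0.943), Aaed1 (-0.928) and Hspa8, the constitutive HSP70 (-0.925). Hspa8 changed by -0.41 under HFD dark-feeding (SE 0.05, adjusted p = 2.36e-06) and by -0.54 under chow dark-feeding (SE 0.08, adjusted p = 1.6e-05).

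Rbm3 had a different set of neighbours. It was most like Luc7l2, a splicing factor of the U1 particle (r = 0.928), then Eif5, a translation initiation factor (0.899), Cyp2j10, a cytochrome P450 (0.872), Cox15, needed for the haem of cytochrome oxidase (0.872), and Zfp51, a zinc finger protein (0.859). The most opposite genes were Baiap2, an adaptor of the actin cytoskeleton (-0.911), Midn (-0.904) and Tecpr2, a factor of autophagy (-0.896). The members correlated at 0.769 with each other, where Rbm3 ranked 175 among the genes most like Cirbp and Cirbp ranked 75 among those most like Rbm3. Luc7l2 was lower in the light phase under chow light-feeding, by -0.18 (SE 0.05, adjusted p = 0.00634). Rbm3 changed there by a similar amount, -0.17 (SE 0.06), just short of the threshold (adjusted p = 0.0539).

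**Figure D5:**
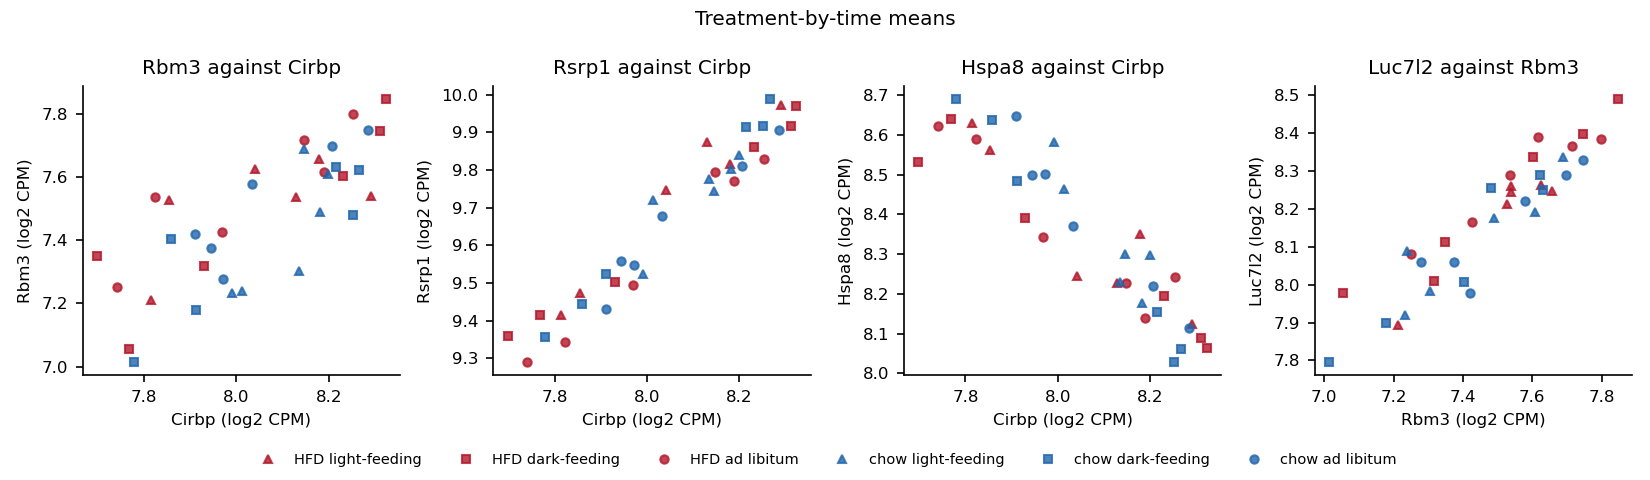
Each point is the mean log2 CPM of 1 treatment at 1 Zeitgeber time, 36 in all, with HFD in red and chow in blue. From left to right are Rbm3 against Cirbp (r = 0.769), Rsrp1 against Cirbp (0.97), Hspa8 against Cirbp (-0.925) and Luc7l2 against Rbm3 (0.928).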

How the data were processed

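RNA of cells labelled as brain microglia was sequenced as strand-specific mRNA libraries, per the labels' protocols. The deposited count table held expected counts per gene, of which 8.03% were not whole, and these were rounded to whole numbers. The analysis plan had assumed raw counts. The deposited FPKM table was made by the authors from the same libraries. Per the submitters' processing notes the genome build was Rnor_6.0. An aligner or counting tool is not given in the sources used here. Counts were tested with edgeR 4.0.16 in R 4.3.3 (TMM, filterByExpr, quasi-likelihood), with Benjamini-Hochberg adjustment over 14393 genes. Alternatives were size factors, DESeq2 1.42.0, no filter, FPKM with limma 3.58.1 and pseudocounts of 1 and 0.1 (genes averaging at least 0.1 FPKM), runs of neighbouring titles as the unit, marker scores, a spline of the title number with 4 degrees of freedom, each time left out, and other shapes of the daily curve. The tests were tried on simulated data with independent libraries, modelled on HFD light-feeding and HFD dark-feeding. Such data cannot show how dependence between neighbouring titles affects the tests. Of 19900 pairs of libraries, 0 held identical counts. Groups came from the labels.

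The genes named are Cirbp and Rbm3, the 5 most and 3 least alike to each among genes that carry a gene symbol, leaving out provisional LOC symbols, and up to 4 members of the heat shock, clock and partner lists with the smallest adjusted p for rhythm in chow ad libitum. Clk1 falls outside this rule and was named after its values were seen. The members and lists were chosen with earlier results of these data known.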

Additional observations from a re-analysis of the deposited data

Results flagged for a closer look

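Of 72 sets of values, 36 groups of libraries at 1 treatment and time for each gene, 3 held a library set apart from the rest by Dixon's criterion, where chance gives about 1 in 20, or 3.6. Cirbp in HFD light-feeding at ZT6 had a highest library of 351.5 CPM, with the nearest of 6 at 285.2 CPM. Cirbp in chow ad libitum at ZT10 had one of 381.4 CPM, with the nearest of 5 at 300.4 CPM. Rbm3 in HFD dark-feeding at ZT14 had one of 226.0 CPM, with the nearest of 5 at 151.5 CPM.

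The daily variation differed between feeding schedules by a test of the difference itself in 15 results. In the light phase excess, light-feeding differed from dark-feeding on HFD (edgeR adjusted p = 3.97e-08 for Cirbp, 2.96e-07 for Rbm3) and on chow (1.74e-05 for Cirbp, 5.62e-06 for Rbm3). It differed from ad libitum feeding on HFD (1.13e-06 for Cirbp, 9.57e-05 for Rbm3) and on chow (0.00759 for Cirbp, 0.000404 for Rbm3). In the 24 h cosine, light-feeding differed from dark-feeding on HFD (edgeR adjusted p = 0.000627 for Cirbp, 0.000101 for Rbm3) and on chow (0.00107 for Cirbp, 0.000439 for Rbm3). It differed from ad libitum feeding on HFD (0.00434 for Cirbp, 0.00125 for Rbm3) and, for Rbm3, on chow (0.0206). These comparisons share libraries.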

How the results depend on the processing

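Of 1344 values of the members under alternative settings, 1232 kept their side of the threshold, 86 lost a call, 26 gained one and 0 called values changed sign. Tests of a rhythm or of a rhythm difference carry no sign, so they could not count as a change of sign. Several values that were not called did change sign, such as the daily mean of Cirbp in chow dark-feeding minus chow ad libitum, in 7 of 14 settings. Size factors in place of TMM and an added 12 h cosine changed no call. The light phase excess on HFD differed between light-feeding and dark-feeding in all 14 settings for Cirbp (highest adjusted p = 0.0488) and Rbm3 (0.00823). Adjusted p-values follow in parentheses after each gene, with light, dark and ad libitum standing for the feeding schedules. Without the filter on low counts, calls were lost in the daily mean for HFD dark minus chow dark (Rbm3 0.066) and in the single-time contrast for chow light minus dark at ZT22 (Cirbp 0.0589). On log2(FPKM + 1) with limma, calls were gained in the rhythm for chow ad libitum (Cirbp 0.0339) and in the daily mean for HFD light minus chow light (Cirbp 0.00467). On log2(FPKM + 1) with limma, calls were lost in the daily mean for HFD dark minus chow dark (Rbm3 0.192) and in the single-time contrast for chow light minus dark at ZT14 (Cirbp 0.361). On log2(FPKM + 0.1) with limma, calls were gained in the rhythm for chow ad libitum (Cirbp 0.0346) and in the daily mean for HFD light minus chow light (Cirbp 0.00468). The single-time contrast for HFD light minus dark at ZT14 (Rbm3 0.0494) gained calls. On log2(FPKM + 0.1) with limma, calls were lost in the daily mean for HFD dark minus chow dark (Rbm3 0.192) and in the single-time contrast for chow light minus dark at ZT14 (Cirbp 0.364). With counts summed over runs of neighbouring titles, calls were lost in the rhythm for HFD ad libitum (Rbm3 0.0987, Cirbp 0.0861), chow ad libitum (Rbm3 0.347), chow dark (Cirbp 0.0634) and in the light phase excess for HFD ad libitum (Rbm3 0.662, Cirbp 0.552), chow ad libitum (Rbm3 0.274, Cirbp 0.228). The daily mean for HFD dark minus chow dark (Rbm3 0.331) and the rhythm difference for HFD light minus ad libitum (Rbm3 0.352, Cirbp 0.352), HFD light minus dark (Cirbp 0.141), chow light minus ad libitum (Rbm3 0.554), chow light minus dark (Rbm3 0.0755, Cirbp 0.0664) lost calls. Also the difference in light phase excess for HFD light minus ad libitum (Rbm3 0.192, Cirbp 0.0814), chow light minus ad libitum (Rbm3 0.207, Cirbp 0.226) and the single-time contrast for HFD light minus dark at ZT2 (Cirbp 0.0668), HFD light minus dark at ZT22 (Cirbp 0.138), chow light minus dark at ZT14 (Cirbp 0.49), chow light minus dark at ZT22 (Rbm3 0.754, Cirbp 0.691) lost calls. With the 6 marker scores as covariates, calls were gained in the rhythm for chow ad libitum (Cirbp 0.02) and in the daily mean for HFD light minus chow light (Rbm3 0.0471). With the 6 marker scores as covariates, calls were lost in the light phase excess for HFD dark (Cirbp 0.275), chow dark (Rbm3 0.0757, Cirbp 0.281) and in the rhythm for chow dark (Rbm3 0.0947, Cirbp 0.566). The daily mean for HFD dark minus chow dark (Rbm3 0.0795) and the single-time contrast for HFD light minus dark at ZT2 (Rbm3 0.0786), chow light minus dark at ZT14 (Cirbp 0.197), chow light minus dark at ZT22 (Cirbp 0.257) lost calls. Also the rhythm difference for chow light minus ad libitum (Rbm3 0.152), chow light minus dark (Rbm3 0.233, Cirbp 0.691) and the difference in light phase excess for chow light minus ad libitum (Cirbp 0.141), chow light minus dark (Cirbp 0.141) lost calls. With a spline of the title number, calls were gained in the rhythm for chow ad libitum (Cirbp 0.0218). With a spline of the title number, calls were lost in the rhythm for HFD ad libitum (Cirbp 0.105), HFD dark (Cirbp 0.177), chow dark (Rbm3 0.144, Cirbp 0.21) and in the light phase excess for HFD ad libitum (Cirbp 0.114), chow dark (Rbm3 0.314, Cirbp 0.134). The rhythm difference for HFD light minus ad libitum (Rbm3 0.16, Cirbp 0.778), HFD light minus dark (Rbm3 0.196, Cirbp 0.695), chow light minus ad libitum (Rbm3 0.816), chow light minus dark (Rbm3 0.768, Cirbp 0.404) and the difference in light phase excess for HFD light minus ad libitum (Cirbp 0.103), chow light minus ad libitum (Rbm3 0.492, Cirbp 0.505), chow light minus dark (Rbm3 0.222) lost calls. Also the single-time contrast for HFD light minus dark at ZT22 (Cirbp 0.0902), chow light minus dark at ZT14 (Cirbp 0.0646), chow light minus dark at ZT22 (Rbm3 0.204, Cirbp 0.057) lost calls. Without ZT2, calls were lost in the daily mean for HFD dark minus chow dark (Rbm3 0.0927) and in the rhythm difference for HFD light minus ad libitum (Cirbp 0.0523), chow light minus ad libitum (Rbm3 0.12). Without ZT6, calls were lost in the light phase excess for chow ad libitum (Cirbp 0.0689) and in the daily mean for HFD dark minus chow dark (Rbm3 0.0951). The rhythm difference for chow light minus ad libitum (Rbm3 0.107) lost calls. Without ZT10, calls were gained in the light phase excess for chow light (Rbm3 0.0213). Without ZT10, calls were lost in the rhythm for chow ad libitum (Rbm3 0.0537) and in the light phase excess for chow ad libitum (Rbm3 0.0653, Cirbp 0.169). The daily mean for HFD dark minus chow dark (Rbm3 0.222) lost calls. Without ZT14, calls were gained in the rhythm for chow ad libitum (Cirbp 0.0306). Without ZT14, calls were lost in the light phase excess for chow ad libitum (Cirbp 0.0525) and in the rhythm difference for HFD light minus ad libitum (Cirbp 0.0866), chow light minus ad libitum (Rbm3 0.0903). The difference in light phase excess for chow light minus ad libitum (Cirbp 0.0506) lost calls. Without ZT18, calls were gained in the light phase excess for HFD light (Cirbp 0.0127), chow light (Rbm3 0.000715) and in the rhythm for chow light (Rbm3 0.00094). The rhythm difference for chow light minus ad libitum (Cirbp 0.0264) gained calls. Without ZT18, calls were lost in the rhythm for chow ad libitum (Rbm3 0.17) and in the light phase excess for chow ad libitum (Rbm3 0.119, Cirbp 0.061). Without ZT22, calls were gained in the rhythm for HFD light (Rbm3 0.0206, Cirbp 0.0408), chow light (Rbm3 0.0221, Cirbp 0.00518) and in the daily mean for HFD light minus chow light (Rbm3 0.0376, Cirbp 0.0295). Without ZT22, calls were lost in the daily mean for HFD dark minus chow dark (Rbm3 0.116) and in the difference in light phase excess for chow light minus ad libitum (Cirbp 0.0514). With time as 6 levels, calls were gained in the rhythm for HFD light (Rbm3 0.0355, Cirbp 0.000997), chow light (Rbm3 0.00673, Cirbp 0.0105). With time as 6 levels, calls were lost in the rhythm for chow ad libitum (Rbm3 0.061). With DESeq2, calls were gained in the rhythm for chow ad libitum (Cirbp 0.0346) and in the light phase excess for chow light (Rbm3 0.0443). Genes called for the light phase excess numbered 47, 4819, 2879, 2845, 3643 and 699 in HFD light-feeding, HFD dark-feeding, HFD ad libitum, chow light-feeding, chow dark-feeding and chow ad libitum. They numbered 464, 19, 1427, 37, 347 and 1314 with marker scores, 3, 1741, 9, 0, 185 and 26 with runs, 0, 902, 320, 993, 768 and 658 with the title spline and 141, 4845, 3055, 2932, 3715 and 857 with DESeq2, in the same order. For the difference in that excess between light-feeding and dark-feeding or ad libitum on HFD, then on chow, 4087, 2285, 4562 and 2261 genes were called, against 1224, 1712, 1116 and 1499 with marker scores, 1482, 21, 375 and 0 with runs and 299, 185, 2186 and 28 with the title spline. The cause of these losses was not tested. Runs leave fewer samples and each omitted time fewer libraries, and whether this accounts for any loss was not tested either. Leaving out single libraries changed the sign of no light phase excess. No paired analysis was possible because replicate numbers follow accession order and the labels tie no library of one group to a library of another. Every library gave at least 709 counts for Cirbp and 646 for Rbm3.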
